A study of Mus musculus with 61 samples.

Results

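The genes described here encode cytochromes P450, followed in fetal mouse liver, forebrain, midbrain and hindbrain. A gene was taken as a member when its symbol followed the P450 pattern (Cyp, a family number, a subfamily letter and a gene number, or Cyp51), when it was annotated as protein-coding, and when it reached at least 1 TPM (the share of all transcripts, corrected for length and scaled to a fixed total) in at least 2 libraries. Of 100 protein-coding P450 genes in the table, 61 met the rule, out of 18655 genes of all kinds that passed the same level. The 61 members fell into 14 families: 26 of family 2, 13 of family 4, 8 of family 3, 3 of family 26, 2 of family 7, and 1 each of families 1, 8, 11, 17, 20, 27, 39, 46 and 51. Just outside the rule stood Cyp1a2, at 8.96 TPM in liver P0 replicate 2 and at 0.69 TPM or less in every other library, and Cyp1a1, at 3.14 TPM in that library and at most 0.44 elsewhere. Among the members nearest to the inside of it were Cyp2b10, at 1.63 and 1.13 TPM in the liver P0 libraries, and Cyp4a12a, at 1.39 and 1.72 TPM there. The level rule touches the results: 36 members had fewer than 2 brain libraries at 1 TPM, and 17 of these had fewer than 2 libraries at 1 TPM anywhere outside liver at P0, so these 17 entered the list only because they were high there.

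P450 enzymes are haem proteins that insert an oxygen atom into small lipophilic molecules. Families 1 to 3 hold many enzymes that metabolise drugs, toxins and steroids, and family 4 hydroxylates fatty acids and eicosanoids. The higher-numbered families are mostly dedicated to single routes: cholesterol synthesis (Cyp51), bile acid and oxysterol metabolism (Cyp7a1, Cyp7b1, Cyp8b1, Cyp27a1, Cyp39a1, Cyp46a1), steroid hormones (Cyp11a1, Cyp17a1) and the breakdown of retinoic acid (Cyp26a1, Cyp26b1, Cyp26c1). The adult liver is the main site of drug metabolism, whereas the fetal liver is also the site of blood formation. In the embryonic hindbrain, the Cyp26 enzymes are known for shaping the distribution of retinoic acid, a patterning signal.

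RNA was sequenced from forebrain, midbrain and hindbrain at 8 stages from embryonic day 10.5 (E10.5) and from liver at 7 stages from E11.5, in each case up to the day of birth (P0). Of the 61 libraries, liver had 14, forebrain 15, and midbrain and hindbrain 16 each. Each of 30 tissue and stage groups had 2 libraries, and forebrain at E10.5 had 1. No strain, genotype, treatment or pooling is named in the labels, and it is not said that replicates came from separate animals. The p-values therefore measure the spread between these libraries, which may be technical. For each gene that spread is pooled over all tissue and stage groups, so a p or SE does not measure the spread at 1 stage.

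The labelled tissues were checked against their markers. The summed level of 8 hepatocyte markers was 11726 to 165412 TPM over the liver libraries and 2.36 to 406 TPM over the brain libraries. Libraries labelled E15.5 went against the neighbouring stages: Hoxb3, a hindbrain gene, stood at 78.0 and 87.6 TPM in the 2 libraries labelled midbrain E15.5 and at 0.15 and 0.24 TPM in the 2 labelled hindbrain E15.5, while other midbrain libraries had at most 2.08 TPM and other hindbrain libraries at least 22.3. The brain libraries of E12.5 carried the liver transcripts Alb, at 3.64 to 112 TPM, and Afp, at 4.62 to 207 TPM, against at most 28.4 and 7.19 TPM at the other brain stages. In midbrain and in hindbrain, 1 library of E16.5 and 1 of P0 (4 in all) carry another stage in the sample title than in the column header, and the header was used. Read counts cannot be recovered from TPM, and sequencing depth is therefore unknown. In bulk tissue, a change in the share of cells of a type and a change in RNA per cell cannot be told apart.

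**Figure D1:**
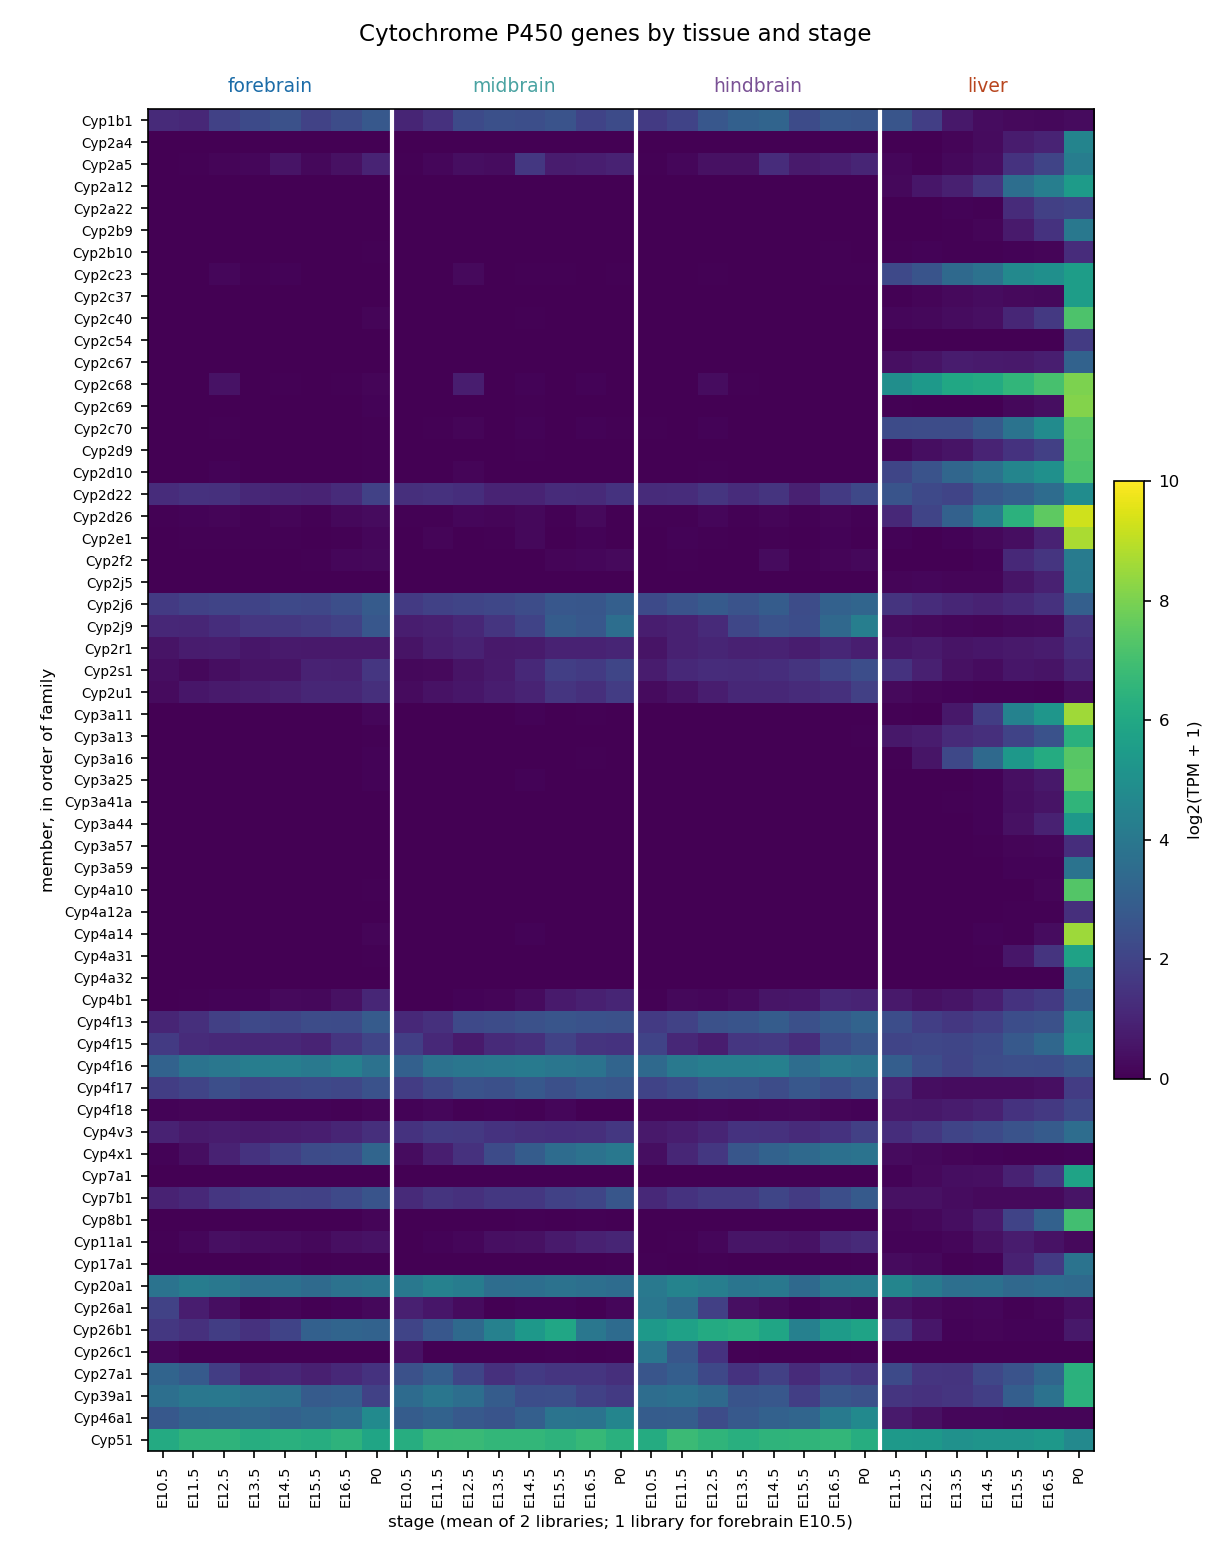
Level of each of the 61 P450 members (rows, in order of family) in every tissue and stage (columns), as the mean of the libraries on the log2(TPM + 1) scale, from 0 (dark) to 10 (light). Most of families 2, 3 and 4 are dark in all brain columns and bright in the liver P0 column, while Cyp51, Cyp20a1 and Cyp4f16 are visible in every column.

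P450 transcripts were a small part of the fetal liver transcriptome until late gestation and a much larger one at birth. The summed level of the 61 members was 150.4 TPM in both libraries at E11.5, 146 at E12.5, 167 at E13.5, 215 at E14.5, 422 at E15.5 and 684 at E16.5. At P0 it was 4230 and 4811 TPM in the 2 libraries. The mean sum was 4.5 times higher at E16.5 than at E11.5, and a further 6.6 times higher at P0. The number of members at 1 TPM or more rose from 17 to 19 in the E11.5 libraries to 50 to 52 at P0. In brain, the sum stayed between 134 and 291 TPM over the 47 libraries, and Cyp51 alone made up 26.6 to 54.9% of it in the groups.

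The make-up of the liver sum changed as well. Families 2, 3 and 4 together gave 71.7 TPM at E11.5 (47.7% of the sum), 600.0 TPM at E16.5 (87.7%) and 4125 TPM at P0 (91.3%). Among the subfamilies, Cyp2c stood at 38.1 TPM at E11.5, 196 at E16.5 and 965 at P0. Cyp2d went from 9.66 to 226 to 953 TPM at the same stages, and Cyp3a from 0.65 to 113 to 957 TPM. Cyp4a, whose members hydroxylate fatty acids, was at 0.02 TPM at E11.5 and 2.22 TPM at E16.5, and at 598 TPM at P0. At birth the 10 highest members held 66.8% of the sum, led by Cyp2d26 (621 ± 43.4 TPM, SD, n = 2), Cyp2e1 (419 ± 131), Cyp3a11 (380.0 ± 77.4), Cyp4a14 (374 ± 177) and Cyp2c69 (278 ± 64.8). TPM is scaled by transcript length, but Cyp2c69 shares much sequence with other Cyp2c genes, and its place in this order is uncertain.

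**Figure D2:**
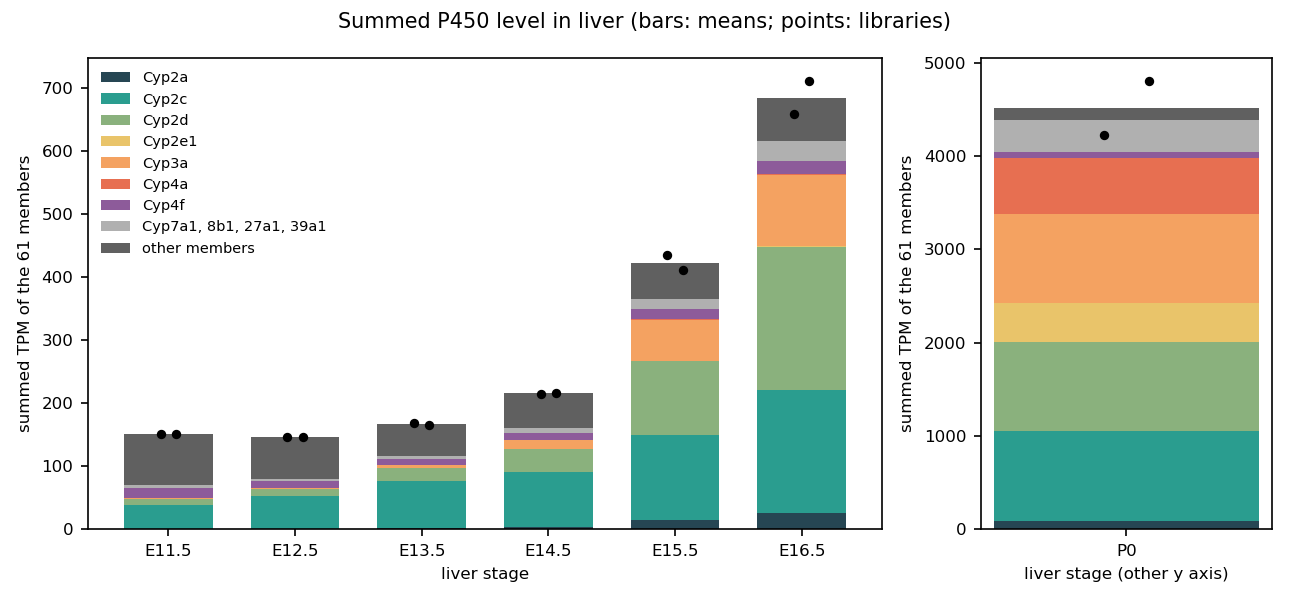
Summed TPM of the 61 members in liver by stage, stacked by subfamily (bars, means of 2 libraries), with the sum of each library as a black point. The left panel runs from E11.5 to E16.5 and the right panel shows P0 with a y axis of its own. The sum goes from 150.4 TPM at E11.5 to 684 at E16.5 and to 4230 and 4811 TPM in the P0 libraries, where Cyp4a and Cyp2e1 first take a visible share.

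Levels of cell type markers in liver moved over the same stages. The summed level of the 8 hepatocyte markers rose 6.7-fold from E11.5 to E16.5 and 2.0-fold from E16.5 to P0, and the 6 erythroid markers went from 21965 to 24656 TPM at E11.5 to 191272 to 191975 at E16.5 and 65504 to 68767 at P0. Relative to the hepatocyte markers, families 2 to 4 stood at 5.86 TPM per 1000 marker TPM at E11.5, at 5.56 to 7.32 from E12.5 to E16.5, and at 25.5 at P0. The 6 fetal stages lay between 5.56 and 7.32 and P0 lay above them. The P0 value includes the 17 members that entered the list only through liver P0. The part of cell composition in the change of any single member was not tested. Alb itself rose by 4.87 ± 1.03 (SE) from E11.5 to P0 on the log2(TPM + 1) scale.

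Liver at P0 was then compared with liver at E11.5 gene by gene with limma, on log2(TPM + 1) over all 18655 genes, and a gene was called at an adjusted p below 0.05 and a change of at least 1 on that scale. Of the 61 members, 46 were higher at P0, against 8.14% of all genes tested, and 2 were lower, against 38.2%. The median change was 3.12 over the members and -0.69 over all genes. The 17 members that entered the list through liver P0 are among the 46, so the count describes the list and does not support it. By family, 23 of 26 members of family 2, 8 of 8 of family 3 and 10 of 13 of family 4 were higher, with Cyp7a1, Cyp8b1, Cyp17a1, Cyp27a1 and Cyp39a1. Every member of the subfamilies Cyp2a (4), Cyp2b (2), Cyp2c (8), Cyp2d (4), Cyp3a (8) and Cyp4a (5) was called higher.

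The members did not follow a single course. By the first stage at which both libraries held at least 1 TPM, 17 were present at E11.5, 1 joined at E12.5, 2 at E13.5, 2 at E14.5, 7 at E15.5, 5 at E16.5 and 19 at P0, and 8 never met that level in liver. The courses are given with every library: genes already present early, genes that climbed at each stage, genes that appeared at birth, and genes that fell.

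Cyp2c68, of a subfamily that oxidises drugs and arachidonic acid, had the highest level of families 2 to 4 in liver at E11.5. Its levels in replicates 1 and 2 were 29.96 and 30.27 TPM at E11.5, 43.4 and 40.5 at E12.5, 59.0 and 61.7 at E13.5, 70.7 and 66.7 at E14.5, 96.4 and 91.5 at E15.5, 123 and 145 at E16.5, and 274 and 251 at P0. The stages did not overlap from one to the next, and the whole rise was 3.08 ± 0.13 (log2, SE; adjusted p = 2.47e-21). In the brain libraries its median was 0 TPM, and the highest values, 0.83, 0.89 and 0.59 TPM, were in E12.5 libraries of forebrain and midbrain, which also carried Alb. Cyp2c23 (3.47 and 3.79 TPM at E11.5, 47.68 and 45.04 at P0) and Cyp2d10 (3.13 and 3.38, then 150.3 and 136) were likewise present from the start. Cyp2c70, an enzyme that makes the rodent muricholic bile acids, stayed at 3.68 to 4.16 TPM from E11.5 to E13.5 and then stood at 6.34 and 5.90 at E14.5, 13.48 and 12.45 at E15.5, 24.4 and 30.7 at E16.5, and 179.7 and 166 at P0.

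Cyp2d26 and Cyp3a16 climbed through gestation. Cyp2d26 was at 0.99 and 1.43 TPM at E11.5, 3 and 3.21 at E12.5, 8.06 and 7.21 at E13.5, 16.52 and 16.78 at E14.5, 93.1 and 78.9 at E15.5, 185 and 177 at E16.5, and 652 and 591 at P0. It was called higher in 5 of the 6 neighbouring steps, with a total change of 8.14 ± 0.09 (adjusted p = 2.11e-38). Cyp3a16, a fetal member of the steroid- and drug-metabolising Cyp3a group, was at 0.04 TPM in both E11.5 libraries, 0.48 and 0.45 at E12.5, 4.13 and 2.98 at E13.5, 10.1 and 9.45 at E14.5, 41.7 and 37.4 at E15.5, 62.4 and 77.0 at E16.5, and 152 and 186 at P0. It was called higher in 4 steps, from E13.5 to E15.5 and again at P0. Cyp3a11, the main adult mouse Cyp3a, ran behind it until E16.5 and passed it at P0: it was at 0.57 and 0.53 TPM at E13.5, 2.83 and 2.17 at E14.5, 19.5 and 22.3 at E15.5, 32.4 and 41.1 at E16.5, and 325 and 435 at P0. At E13.5 to E16.5 every Cyp3a16 library was above every Cyp3a11 library of the same stage, and at P0 the order was the reverse; that order was not tested.

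Another group was close to 0 until E16.5. Cyp2e1, which oxidises ethanol, acetone and other small molecules, was at 0 to 0.40 TPM from E11.5 to E15.5, at 0.88 and 1.02 at E16.5, and at 327 and 512 at P0. Cyp4a14 was at 0 to 0.30 TPM in every liver library before P0 and at 249 and 499 at P0. Cyp4a10 was at 0 to 0.10 TPM before P0 and at 102 and 212 at P0. Cyp2c69 was at 0 to 0.33 TPM before and at 324 and 233 at P0, and Cyp3a25 was at 0 to 0.65 TPM before and at 94.0 and 268 at P0. From E16.5 to P0 these changed by 7.72 ± 0.10 (Cyp2e1), 8.15 ± 0.13 (Cyp4a14), 7.08 ± 0.14 (Cyp4a10), 7.73 ± 0.08 (Cyp2c69) and 6.69 ± 0.20 (Cyp3a25) on the log2 scale. These 5 are among the 17 members that passed the level rule only through liver P0, so the changes are descriptions and no p is given. The P0 replicates differed for several of these genes, but the smallest P0 value of each was far above its largest earlier value. Each SE pools the spread over all groups, most of them near 0 TPM for these genes, and so understates the spread at P0.

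**Figure D3:**
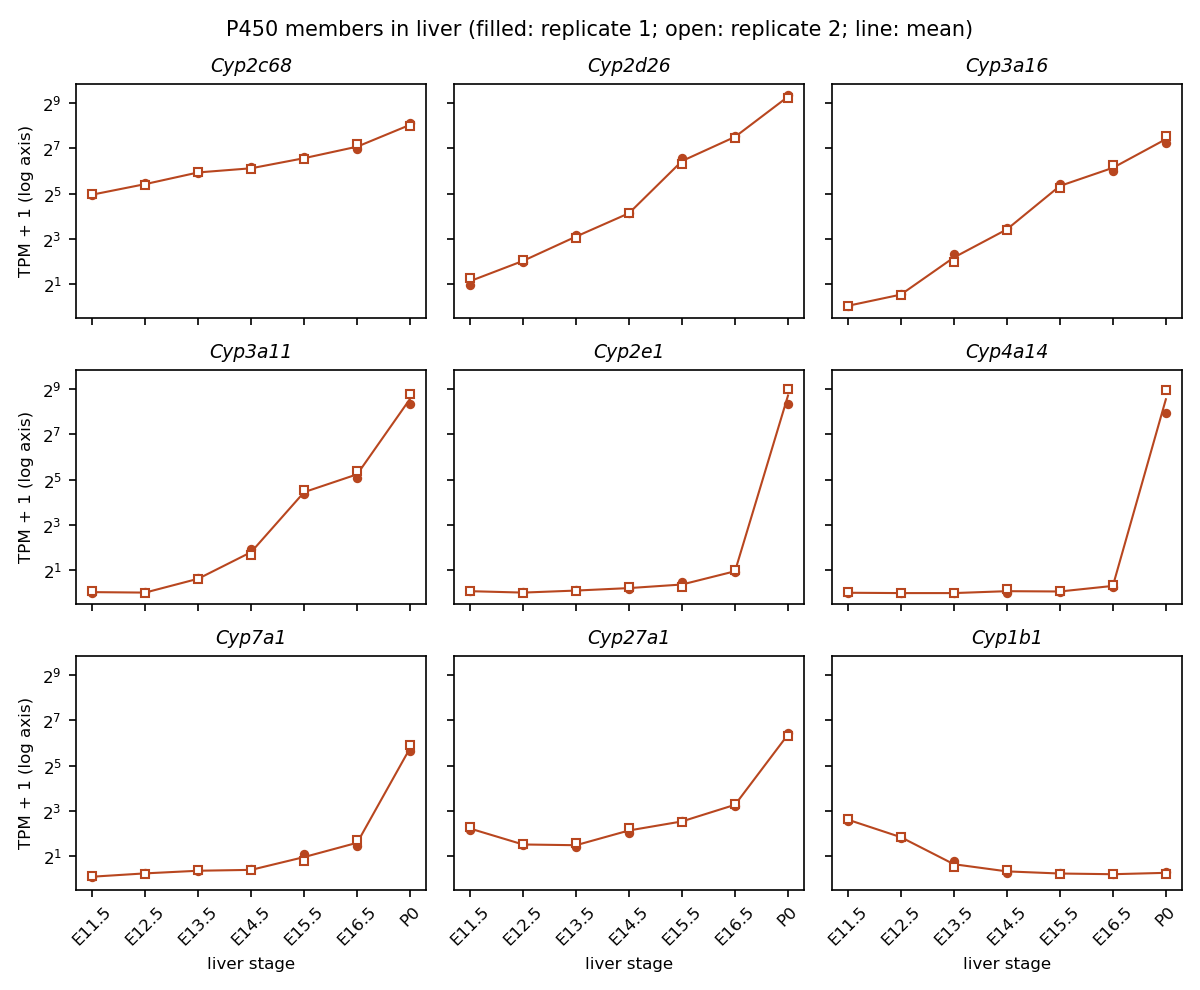
TPM + 1 on a log axis against stage in liver for 9 members, with replicate 1 filled, replicate 2 open and the mean as a line; stages are drawn at equal distances, although E16.5 to P0 is the longest interval. Cyp2c68 starts at 29.96 TPM, Cyp2d26 and Cyp3a16 climb stage by stage, Cyp2e1 and Cyp4a14 stay near 0 until E16.5, and Cyp1b1 falls.

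Between neighbouring liver stages, limma called no member at E12.5 in either direction (1.42% of all genes were higher and 3.68% lower), although 8 members were higher and 11 lower at an unadjusted p below 0.05. Members called higher were 2 at E13.5 (0.809%), 3 at E14.5 (0.263%), 9 at E15.5 (1.80%), 3 at E16.5 (0.772%) and 42 at P0 (5.75%). In all, 44 members were called in at least 1 of the 6 steps, against 20.1% of all genes. The 17 members that entered the list only through liver P0 are among the 42. Both the count at P0 and this total therefore describe the list and do not support it. The E13.5 pair was Cyp3a16 (1.63 ± 0.08) and Cyp2d26 (1.07 ± 0.09), and Cyp3a11 joined them at E14.5 (1.17 ± 0.09). The 9 at E15.5 included Cyp3a11 (2.65 ± 0.09), Cyp2d26 (2.30 ± 0.09), Cyp2a12 (2.06 ± 0.08), Cyp3a16 (1.91 ± 0.08) and Cyp8b1 (1.29 ± 0.07), beside Cyp2a22, Cyp39a1, Cyp2f2 and Cyp2a5. At E16.5 they were Cyp8b1 (1.11 ± 0.07), Cyp2d26 (1.07 ± 0.09) and Cyp2c70 (1.02 ± 0.07). With quantile normalization none of the 3 at E16.5 was called (0.999, 0.831 and 0.832), nor were Cyp2d26 (0.80) and Cyp3a16 (0.99) at E14.5. Median-of-ratios scaling lost Cyp2c70 at E16.5 (0.98) and Cyp2d26 at E14.5 (0.95). Several of these steps sat close to the size required: without liver E15.5 replicate 2 the 3 at E16.5 were 0.96, 0.95 and 0.97, and without E13.5 replicate 2 the E14.5 step of Cyp2d26 was 0.96, none of them called. The E16.5 step of Cyp2c70 was also lost without E16.5 replicate 2 (0.86), and the E15.5 step of Cyp2a5 without E15.5 replicate 1 (0.93). The single lower call was Cyp1b1 at E13.5 (-1.20 ± 0.17), against 6.5% of all genes at that step. At P0 no member was called lower (3.65% of all genes were; 2 members were lower at an unadjusted p below 0.05). The P0 calls of Cyp2a12 (0.98 without P0 replicate 2) and Cyp2b10 (0.97 without P0 replicate 1) rested on 1 library. Of the 46 members higher at P0 than at E11.5, 40 had their largest step between E16.5 and P0 and 6 between E14.5 and E15.5. The step to P0 spans more days than the others, and the erythroid markers fell over it.

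Of the P450 genes of bile acid synthesis, Cyp7a1, Cyp8b1, Cyp27a1 and Cyp39a1 rose in liver, and Cyp7b1 was not called. Cyp7a1, the rate-limiting enzyme of the classical route from cholesterol, was at 0.06 to 0.34 TPM from E11.5 to E14.5, at 1.18 and 0.74 at E15.5, 1.79 and 2.28 at E16.5, and 48.7 and 59.6 at P0. Cyp8b1, which adds the hydroxyl group that makes cholic acid, was at 0.04 and 0.17 TPM at E11.5, 3.41 and 2.58 at E15.5, 7.11 and 8.13 at E16.5, and 129 and 119.6 at P0. Cyp27a1, the mitochondrial sterol 27-hydroxylase, first went down, from 3.51 and 3.87 TPM at E11.5 to 1.63 and 2 at E13.5, and then up to 8.36 and 9.02 at E16.5 and 86.4 and 77.7 at P0. Cyp39a1, an oxysterol 7-alpha-hydroxylase, was at 1.67 to 2.70 TPM from E11.5 to E14.5, at 7.10 and 6.59 at E15.5, 12.02 and 13.53 at E16.5, and 78.7 and 91.9 at P0. The changes from E11.5 to P0 were 5.67 ± 0.07, 6.82 ± 0.07, 4.14 ± 0.13 and 4.88 ± 0.09 in that order, with adjusted p of 1.70e-36, 4.63e-39, 3.06e-25 and 3.62e-32. Cyp7b1, the 7-alpha-hydroxylase of the alternative route, did not pass the test in liver (0.35 to 0.43 TPM at both ends; 0.05 ± 0.08). Of 9 other bile acid synthesis genes, 7 were called higher and 0 lower, beside 8.14% and 38.2% of all genes, with a median change of 2.62. Among them were the bile acid CoA ligase Slc27a5 (5.86 ± 0.17), the reductase Akr1d1 (5.58 ± 0.09), Acox2 (5.18 ± 0.09) and Baat (3.34 ± 0.09), while Hsd17b4 (0.80 ± 0.09) and Ch25h (-0.29 ± 0.12) did not reach the size required for a call.

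P450 enzymes of the endoplasmic reticulum need electrons from Por, and mitochondrial ones from Fdx1 and Fdxr. Of 8 such partner genes tested, 2 were higher at P0 than at E11.5 in liver and 2 were lower, with a median of 0.03. Over all genes, 8.14% were higher and 38.2% lower. Por went from 28.9 to 212 TPM (2.81 ± 0.13, adjusted p = 6.10e-20) and Cyb5a, cytochrome b5, from 343 to 871 TPM (1.33 ± 0.08). Fdx1l fell by 1.70 and Cyb5b by 1.40. Fdx1 (0.84 ± 0.08) and Fdxr (-0.81 ± 0.11) were not called.

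Of 20 regulators of hepatic and xenobiotic genes, 12 were higher at P0 in liver and 0 lower, beside 8.14% and 38.2% of all genes. The xenobiotic receptor Nr1i3 (CAR) went from 0.10 to 48.7 TPM (5.49 ± 0.08), the fatty acid receptor Ppara from 1.45 to 52.1 TPM (4.44 ± 0.10), the bile acid receptor Nr1h4 (FXR) from 1.41 to 32.9 TPM (3.80 ± 0.09) and Nr0b2 from 0.52 to 10.7 TPM (2.91 ± 0.09). The xenobiotic receptor Nr1i2 (PXR) went from 2.96 to 27.2 TPM. Hnf4a, a hepatocyte transcription factor, was already at 37.9 TPM at E11.5 and stood at 108 TPM at P0 (1.49 ± 0.13). Nr1h2 (-0.50 ± 0.10) and Tef (-0.01 ± 0.13) were not called.

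Steroid P450 genes were low in all tissues. Cyp17a1, which makes androgen precursors, was at 0.29 and 0.18 TPM in liver at E11.5, 1.11 and 0.67 at E15.5, 1.73 and 2.69 at E16.5, and 9.15 and 16.7 at P0, a rise of 3.44 ± 0.13. Cyp11a1, the cholesterol side-chain cleavage enzyme, did not exceed 0.74 TPM in liver, and in hindbrain it went from 0.07 and 0.01 TPM at E11.5 to 1.33 and 1.24 at P0 (1.14 ± 0.11, adjusted p = 1.12e-11). The call for Cyp11a1 was lost with median-of-ratios scaling (0.99) and with quantile normalization (0.76). Of 5 other steroid synthesis genes tested in liver, Hsd3b1 rose (3.73 ± 0.10), Hsd3b6 fell by 1.33, and Srd5a1 (-0.93 ± 0.07) and Star (-0.27 ± 0.11) were not called. Cyp19a1 and Cyp27b1 did not meet the rule for members.

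Against the general rise, 2 members fell in liver. Cyp1b1, an enzyme that oxidises oestrogens and aromatic hydrocarbons, was at 4.93 and 5.37 TPM at E11.5, 2.56 and 2.64 at E12.5, 0.72 and 0.43 at E13.5, and at 0.15 to 0.32 from E14.5 to P0 (-2.35 ± 0.17, adjusted p = 3.82e-15). Cyp20a1, whose substrate is not known, was at 22.5 and 22.8 TPM at E11.5, 16.8 and 16.4 at E12.5, and 9.65 and 9.45 at P0 (-1.16 ± 0.08). With median-of-ratios scaling the change of Cyp20a1 was -0.07, and with quantile normalization -0.34, and neither was called. These scalings moved the median of all genes in this comparison from -0.69 to -0.01 and -0.18. Cyp51, the lanosterol demethylase of cholesterol synthesis, was not called (41.6 TPM at E11.5, 25.3 at P0; -0.70 ± 0.11), and of 20 other cholesterol synthesis genes 1 was higher and 4 were lower, beside 8.14% and 38.2% of all genes.

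The 2 liver libraries of P0 differed from each other in which members they favoured. Of 52 members at a mean of 1 TPM or more, 10 were over 1.5 times higher in replicate 2 and 5 were over 1.5 times higher in replicate 1. Replicate 2 was 2.85 times replicate 1 for Cyp3a25, 2.08 times for Cyp4a10, 2 times for Cyp4a14, 2.25 times for Cyp2b9 and 1.57 times for Cyp2e1. For Cyp3a59 the libraries held 2.06 and 23.8 TPM, and replicate 2 was the library in which Cyp1a2 and Cyp1a1 passed 1 TPM. In the other direction replicate 2 was 0.54 times replicate 1 for Cyp2c37, 0.55 times for Cyp2a5 and 0.61 times for Cyp3a13. With 2 libraries this is a description of these libraries.

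Several of these genes are near-copies of each other, which bears on how the authors' reads could be assigned. The share of a member's 50-base windows that also occur in transcripts of other genes was 98.6% for Cyp3a41a (Cyp3a41b above all), 72.1% for Cyp2c40, 54.8% for Cyp2c69, 52.8% for Cyp2c67, 48.9% for Cyp4a12a, 46.8% for Cyp4a32 and 43.3% for Cyp2c68, and over 30% for 12 members in all. Levels of these within their subfamily are uncertain: Cyp3a41a is listed at 87.9 and 98.7 TPM in liver at P0 and Cyp3a41b at 0.32 and 0.44. The subfamily sums given above are less exposed to that. No shared window was found for 19 members, including Cyp2c70, Cyp2c23, Cyp3a13, Cyp7a1, Cyp8b1, Cyp27a1, Cyp39a1, Cyp46a1 and the Cyp26 genes.

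Most members lie in gene clusters. On mm10, 42 members fell into 8 runs with gaps under 1000000 bases. Cyp2c67, Cyp2c68, Cyp2c40, Cyp2c69, Cyp2c37, Cyp2c54 and Cyp2c70 lie at chr19:39608842-40187333, and 7 of 7 were higher at P0 in liver, by 1.71 to 8.06. Cyp3a57, Cyp3a16, Cyp3a41a, Cyp3a44, Cyp3a11, Cyp3a25 and Cyp3a59 lie at chr5:145345279-146113287, and 7 of 7 were higher, by 1.31 to 8.52. Over all genes tested, 8.14% were higher at P0 in liver. The run at chr4:115106323-115647723 was mixed: 5 Cyp4a genes and Cyp4b1 were higher in liver at P0, and Cyp4x1, at its edge, was not called in liver (-0.18 ± 0.11) and rose in all 3 brain regions. In the Cyp2j run at chr4:96516138-96664154, all 3 members were higher at P0 in liver, Cyp2j5 by 3.98. Cyp2j9 was also called lower in liver than in brain on average, while Cyp2j6 missed the size required for that call (-0.99 ± 0.03). In these runs Cyp2c37, Cyp2c54, Cyp2c67, Cyp2c69, Cyp3a25, Cyp3a41a, Cyp3a44, Cyp3a57 and Cyp3a59 passed the level rule only through liver P0. So did Cyp4a10, Cyp4a12a, Cyp4a14, Cyp4a32 and Cyp2j5. Agreement within a run therefore describes the list and does not support it.

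Promoters were compared because many members were called higher in liver at P0. RefSeq (GRCm38.p6) gave a start for 47 of the 61 members, and the 250 bases before each start were searched on both strands for 6 motifs. The letters CAAAGTCCA, a core of the HNF4 site, occurred in 9 of 47 members (19.1%) and in 126 of 32851 promoters of all genes (0.384%). All 9 were among the 20 searched members that were higher in liver than in brain on the mean over stages, and 0 of the other 27 had them. The other 27 are not all low in liver, and they include members called higher there at P0. All 9 had fewer than 2 brain libraries at 1 TPM and so entered the list through liver. The split of 9 and 0 therefore describes the list. The 9 were Cyp8b1, Cyp2c40, Cyp2c67, Cyp2c68, Cyp2c69, Cyp2c70, Cyp3a11, Cyp3a16 and Cyp3a41a; the Cyp2c and Cyp3a copies share ancestry and are not independent. The sequences below are shown for the members whose courses were described above, 5′ to 3′ on the gene's strand and ending just before the start, with the motif in capitals. Cyp8b1 is chr9:121916306-121916425, Cyp3a16 is chr5:145469724-145469843, Cyp3a11 is chr5:145879855-145879974, Cyp2c68 is chr19:39741102-39741221, Cyp2c69 is chr19:39886770-39886889 and Cyp2c70 is chr19:40187287-40187406, all on the minus strand.
Cyp8b1: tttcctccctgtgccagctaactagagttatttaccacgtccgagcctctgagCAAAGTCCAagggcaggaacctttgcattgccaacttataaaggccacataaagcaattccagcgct
Cyp3a16: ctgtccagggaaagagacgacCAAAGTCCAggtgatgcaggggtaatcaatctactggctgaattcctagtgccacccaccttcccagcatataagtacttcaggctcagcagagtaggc
Cyp3a11: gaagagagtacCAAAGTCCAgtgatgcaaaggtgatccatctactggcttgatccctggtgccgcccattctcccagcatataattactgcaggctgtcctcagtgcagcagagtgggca
Cyp2c68: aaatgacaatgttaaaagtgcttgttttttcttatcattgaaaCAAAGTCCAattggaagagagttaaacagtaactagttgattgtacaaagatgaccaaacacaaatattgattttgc
Cyp2c69: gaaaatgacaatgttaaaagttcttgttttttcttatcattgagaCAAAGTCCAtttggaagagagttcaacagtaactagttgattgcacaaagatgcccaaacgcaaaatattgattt
Cyp2c70: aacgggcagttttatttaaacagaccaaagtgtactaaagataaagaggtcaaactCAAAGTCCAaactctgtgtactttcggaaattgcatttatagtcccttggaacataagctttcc

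With the last base before the start counted as -1, the motif lay at -67 to -59 in Cyp8b1, -99 to -91 in Cyp3a16, -109 to -101 in Cyp3a11, -77 to -69 in Cyp2c68, -75 to -67 in Cyp2c69 and -64 to -56 in Cyp2c70. The TATA box letters TATAAA occurred in 18 of the 47 members (38.3%) and 12.4% of all promoters, and the C/EBP letters TTGCNNAA in 11 members (23.4%) and 9.56% of all. The C/EBP letters were in 3 of the 20 members higher in liver on the mean over stages and 8 of the other 27, and the TATA letters in 11 and 7. Many of these others were called higher in liver at P0. With the C/EBP letters they were Cyp2a4, Cyp2a5, Cyp2b9, Cyp2b10, Cyp2c37 and Cyp2j9. With the TATA letters they were Cyp2a4, Cyp2a5, Cyp2a22, Cyp2j5, Cyp3a44 and Cyp4a32. No member had the palindromic HNF1 consensus (0.00913% of all promoters did) or the sterol element letters TCACNCCAC (1.05%). The retinoic acid element made of the letters AGTTCA repeated after a spacer of 5 bases was found in 1 member, Cyp26a1, and in 7 of 32851 promoters. A match to letters describes the sequence and is not evidence of binding.

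The members were next compared between tissues, as the mean over E11.5 to P0 in liver (14 libraries) against the mean over the same stages in the 3 brain regions (42 libraries). Of the 61 members, 26 were higher in liver, against 9.33% of all genes, and 9 were lower, against 44%. The 36 members with fewer than 2 brain libraries at 1 TPM entered the list through liver. The count of higher members therefore describes the list and does not support it. The median difference was 0.91 over the members and -0.82 over all genes. With median-of-ratios scaling, which moved the median of all genes to -0.02, the counts were 38 and 6, and with quantile normalization, which moved it to 0.01, they were 39 and 3. At the level of single libraries, 36 members were below 1 TPM in every brain library, 7 were below 1 TPM in every liver library, and 9 were at 1 TPM or more in every brain library.

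On the liver side the greatest differences were those of Cyp2c68 (98.8 TPM in liver and 0.087 in brain, 6.20 ± 0.04) and Cyp2d26 (131 and 0.091 TPM, 4.69 ± 0.03). They were followed by Cyp2d10 (4.04), Cyp2c23 (3.83), Cyp2c70 (3.66) and Cyp3a16 (3.57). All of these entered the list through liver, so the differences are descriptions and no p is given. Cyp2e1, near 0 in liver before birth, differed by 1.43 ± 0.03 on this average over stages. The calls of Cyp2c67 (0.99) and Cyp4a10 (0.98) were lost without liver P0 replicate 2. Of the companion lists, 6 of 9 bile acid genes and 10 of 20 regulators were higher in liver, beside 9.33% of all genes.

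On the brain side, Cyp26b1, which degrades retinoic acid, was at 0.457 TPM in liver and 26.7 in brain (-3.57 ± 0.07, adjusted p = 3.08e-32). Cyp46a1, the cholesterol 24-hydroxylase by which neurons dispose of cholesterol, was at 0.217 and 10.9 TPM (-3.13 ± 0.04). Cyp4x1 (-2.27 ± 0.04), Cyp4f17 (-1.76), Cyp2j9 (-1.66) and the oxysterol hydroxylase Cyp7b1 (-1.54) were also lower in liver. Cyp46a1, Cyp4x1 and Cyp7b1 were below 1 TPM in every liver library and entered the list through brain. Their differences are therefore descriptions and no p is given. Of the 9 lower members, Cyp26b1, Cyp46a1 and Cyp4x1 were called under both other scalings. Under quantile normalization the calls of Cyp2j9 (-0.94), Cyp4f17 (-0.88) and Cyp7b1 (-0.76) were lost, and those of Cyp4f16, Cyp1b1 and Cyp51 were lost under both. Cyp51 was at 35.4 TPM in liver and 88.8 in brain (-1.301 ± 0.035), with -0.12 under median-of-ratios scaling and -0.40 under quantile normalization. Cyp1b1 went from -1.43 to -0.91 and -0.56, and Cyp4f16 from -1.53 to -0.48 and -0.29. Of 20 other cholesterol synthesis genes, 7 were lower in liver and 1 was higher, and of 13 other retinoic acid genes 7 were lower and 1 was higher, beside 44% of all genes lower and 9.33% higher.

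In brain fewer members were called higher than the 46 in liver, while the members called lower were no fewer than the 2 in liver. From E11.5 to P0, 8 of 61 were higher in forebrain (19.2% of all genes were), 9 in midbrain (18.3%) and 10 in hindbrain (16.2%). Lower were 2 in forebrain (11.8%), 2 in midbrain (15.1%) and 4 in hindbrain (11.8%). These shares are near or below those of all genes, but 36 members were below 1 TPM in every brain library. On the log2(TPM + 1) scale those members could not reach the size required for a call. The shares and the comparison with the 46 in liver therefore describe the list, and no conclusion about the members is drawn from them. With quantile normalization the counts were 4 higher and 2 lower in midbrain and 6 higher and 4 lower in hindbrain. In each of the 3 regions Cyp2j9, Cyp2s1, Cyp4f13, Cyp4x1, Cyp7b1 and Cyp46a1 were called higher and Cyp27a1 and Cyp39a1 lower. With the stage of the sample titles for the 4 doubtful libraries, 5 calls were lost: Cyp7b1 (0.90), Cyp2j6 (0.94) and Cyp4b1 (0.98) in midbrain, and Cyp4f13 (0.98) and Cyp4v3 (0.88) in hindbrain.

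Cyp46a1 was higher in forebrain at birth than at any earlier stage, with a smaller step before it at E16.5. Its forebrain levels were 5.71 TPM at E10.5, 6.76 to 9.2 TPM from E11.5 to E15.5, 11.1 and 10.1 at E16.5, and 27.4 and 26.2 at P0. Midbrain went from 7.35 and 8.42 TPM at E11.5 to 22.0 and 23.4 at P0, and hindbrain from 6.99 and 6.6 to 26.2 and 25.3. No P0 library overlapped an earlier one of its region. The changes were 1.64, 1.42 and 1.78 (each ± 0.13), with adjusted p of 1.42e-13, 5.73e-12 and 2.09e-14. In liver no library exceeded 0.74 TPM.

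Cyp4x1, a brain member of family 4, was at 0.27 and 0.31 TPM in forebrain at E11.5 and at 8.26 and 9.02 at P0. In midbrain it went from 0.78 and 0.76 TPM to 14.03 and 16.06, and in hindbrain from 1.09 and 1.08 to 13.2 and 12.6. The changes were 2.90, 3.18 and 2.74 (each ± 0.11). Cyp2j9, of a subfamily that forms epoxides of arachidonic acid, differed more between regions at birth. It began at 0.79 to 1.18 TPM in all 3 regions and ended at 5.27 and 5.91 TPM in forebrain, 11.3 and 11.4 in midbrain, and 18.8 and 18.5 in hindbrain. Its changes were 1.66, 2.75 and 3.38 (each ± 0.13), and the difference between these regions' changes was not tested.

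Cyp7b1, which acts on oxysterols and neurosteroids, rose by 1.452, 1.196 and 1.367 (each ± 0.08), reaching 4.77 to 6.69 TPM at P0 from 1.14 to 1.88 at E11.5. Cyp4f13 rose by 1.501, 1.097 and 1.208 and Cyp2s1 by 1.38, 1.83 and 1.21. Under quantile normalization Cyp4f13 was not called in midbrain (0.80) or hindbrain (0.96), Cyp2s1 not in forebrain (0.97) or hindbrain (0.88), and Cyp7b1 not in midbrain (0.89). Cyp1b1 was called higher only in forebrain, from 0.95 and 1.36 TPM to 6.46 and 4.91 (1.63 ± 0.17). Its changes in midbrain (0.87) and hindbrain (0.60) did not reach the size required.

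The sterol hydroxylases Cyp39a1 and Cyp27a1 fell in brain. Cyp39a1 went from 14.1 and 15.1 TPM at E11.5 to 2.71 and 2.96 at P0 in forebrain, from 14.02 and 14.38 to 2.26 and 2.17 in midbrain, and from 11.6 and 12.2 to 4.35 and 4.84 in hindbrain (-2.03, -2.24 and -1.21, each ± 0.09; adjusted p = 8.88e-21, 4.52e-22 and 1.95e-14). Cyp27a1 went from 5.92 to 7.20 TPM at E11.5 to 1.42 to 2.18 at P0 over the 3 regions (-1.37, -1.64 and -1.42, each ± 0.13). Cyp51 was at 41.8 to 111 TPM over the brain libraries, and its P0 changes of -0.66, -0.39 and -0.56 were not called. Of the 20 other cholesterol synthesis genes, 0, 1 and 0 were higher and 2, 2 and 1 lower in forebrain, midbrain and hindbrain. Of all genes, 19.2%, 18.3% and 16.2% were higher and 11.8%, 15.1% and 11.8% lower in that order.

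Levels of cell type markers in brain moved over the same stages. Summed neuron markers (5 genes) went from 920 to 1035 TPM at E11.5 to 4340 to 4762 at P0 in forebrain and were also higher at P0 in the other regions. Astrocyte markers (5 genes) went from 25.7 to 27.5 TPM to 219.6 to 250.3 in forebrain, and in hindbrain from 32.8 to 35.5 to 521 to 527. Markers of meninges (6 genes) ran from 34.7 to 46.7 TPM at E11.5 over the 3 regions and from 556 to 1363 TPM at P0. Choroid plexus markers (6 genes) were at 1821 to 2408 TPM in forebrain at P0, at 90 to 349 in midbrain and at 2383 to 2557 in hindbrain. The part of these cell types in the changes of the members was not tested.

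**Figure D4:**
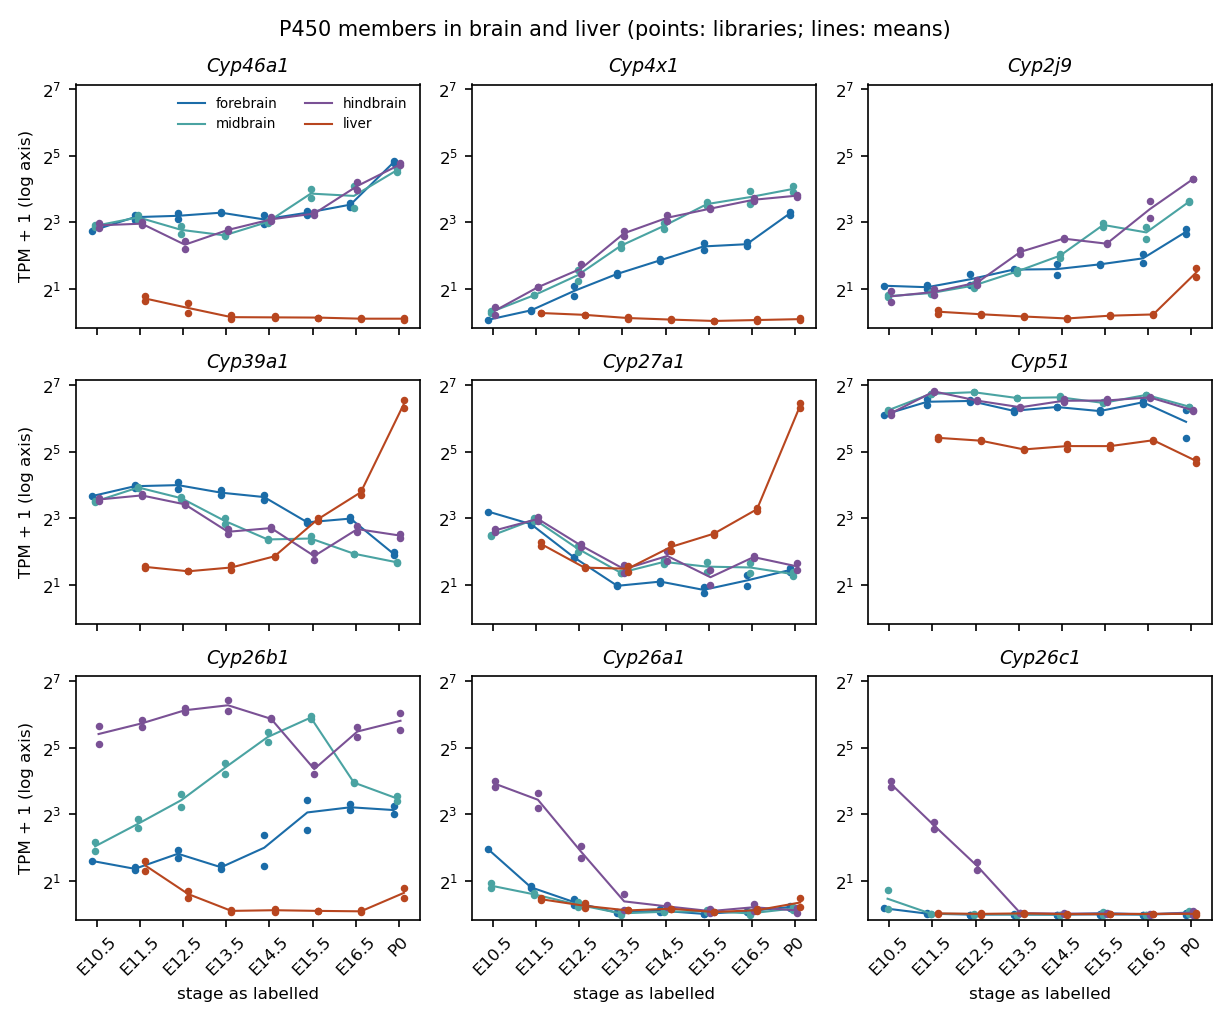
TPM + 1 on a log axis against stage, as labelled, for 9 members in forebrain, midbrain, hindbrain and liver; points are libraries and lines are means. Cyp46a1, Cyp4x1 and Cyp2j9 are highest in brain at P0, Cyp39a1 and Cyp27a1 fall in brain while they rise in liver, and Cyp26a1 and Cyp26c1 in hindbrain are near 0 from E13.5.

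The Cyp26 enzymes break down retinoic acid and were each higher in hindbrain than in the other regions at early stages. Cyp26b1 in hindbrain was at 33.7 and 49.1 TPM at E10.5, 55.9 and 47.9 at E11.5, 65.4 and 71.5 at E12.5, 66.9 and 85.2 at E13.5, 57.6 and 56.6 at E14.5, 48.5 and 38.8 at E16.5, and 45.1 and 64.6 at P0. Midbrain was at 3.52 and 2.73 TPM at E10.5, 4.97 and 6.23 at E11.5, 8.27 and 11.3 at E12.5, 17.5 and 22.4 at E13.5, 34.7 and 43.0 at E14.5, 14.3 and 14.7 at E16.5, and 10.8 and 9.51 at P0. The libraries labelled E15.5 broke this order, with 60.6 and 56.8 TPM under midbrain and 21.3 and 17.7 under hindbrain; these are the libraries in which Hoxb3 also went against the label. In forebrain the levels were 1.5 to 2.86 TPM up to E13.5 and 1.74 to 9.86 TPM from E14.5. Apart from E15.5, every hindbrain library was above every midbrain and forebrain library of its stage.

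Averaged over E11.5 to P0, Cyp26b1 was lower in forebrain than in hindbrain (4.59 and 53.1 TPM; -3.39 ± 0.09, adjusted p = 9.27e-27), lower in forebrain than in midbrain (22.5 TPM; -1.90 ± 0.09, adjusted p = 2.02e-19) and lower in midbrain than in hindbrain (-1.49 ± 0.09, adjusted p = 1.11e-15). The 3 comparisons share libraries. Without the E15.5 libraries the differences were -3.72, -1.73 and -1.99. It was the 1 member called lower in each comparison, against 3.28%, 1.77% and 0.718% of all genes. limma called 0 members higher in forebrain than hindbrain (1.03% of all genes were), 0 in forebrain than midbrain (0.96%) and 0 in midbrain than hindbrain (0.252%), with 2 members higher in each at an unadjusted p below 0.05. The 36 members below 1 TPM in every brain library could not reach the size required in these comparisons either. Cyp4x1 was near the size required, lower in forebrain than in hindbrain by -0.98 ± 0.04 and than in midbrain by -0.88 ± 0.04.

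Cyp26a1 and Cyp26c1 were hindbrain genes of the earliest stages. Cyp26a1 in hindbrain was at 15.1 and 13.2 TPM at E10.5, 8.08 and 11.6 at E11.5, 3.15 and 2.23 at E12.5, 0.53 and 0.1 at E13.5, and at most 0.25 later. Cyp26c1 was at 13.2 and 14.8 TPM at E10.5, 4.91 and 5.79 at E11.5, 1.96 and 1.51 at E12.5, 0.03 in both at E13.5, and at most 0.08 later. From E11.5 to P0 they fell by 3.30 (SE 0.12, adjusted p = 3.48e-22) and by 2.61 (SE 0.09, adjusted p = 6.47e-23), and the higher levels of E10.5 are not part of that contrast. Forebrain had 2.9 TPM of Cyp26a1 in its single E10.5 library. The pair lies side by side at chr19:37685581-37701536 on mm10.

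The promoter of Cyp26a1 is shown because it was the 1 member with the retinoic acid element in its 250 bases. The stretch is chr19:37697698-37697807 (GRCm38.p6, plus strand), 5′ to 3′ and ending just before the start. Capitals mark the element, which matches on the opposite strand and so reads here as its reverse complement.
Cyp26a1: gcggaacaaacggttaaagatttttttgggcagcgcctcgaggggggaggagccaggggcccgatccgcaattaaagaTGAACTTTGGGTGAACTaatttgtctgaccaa

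Of 13 other retinoic acid genes, 4 were higher and 3 lower at P0 than at E11.5 in forebrain, 4 and 3 in midbrain, and 2 and 5 in hindbrain. Over all genes, 19.2% were higher and 11.8% lower in forebrain, 18.3% and 15.1% in midbrain, and 16.2% and 11.8% in hindbrain. Aldh1a2, an enzyme that makes retinoic acid, rose in forebrain (2.85 ± 0.21) and midbrain (3.82), and Aldh1a1 rose in forebrain (1.16), midbrain (4.22 ± 0.21) and hindbrain (2.14). Aldh1a2 is also in the meninges list, whose sum rose. The binding proteins Crabp1 and Crabp2 fell in each region, Crabp2 by 4.54, 3.57 and 4.37. In hindbrain the receptors Rarg (-2.02), Rarb (-1.60) and Rara (-1.57) were lower at P0, over the interval in which Cyp26a1 and Cyp26c1 fell.

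The change in liver was tested against the mean change in the 3 brain regions; the liver and brain libraries are separate. For 44 of 61 members the change from E11.5 to P0 was larger in liver (9.32% of all genes were called so) and for 8 it was smaller (38.6%). The medians were 3.12 for the members and -0.71 for all genes. The 61 include the 17 members that passed the level rule only through liver P0. The count of 44 and the median of the members therefore describe the list and do not support it. The greatest differences were those of Cyp2e1 (8.62 ± 0.12), Cyp3a11 (8.46 ± 0.11), Cyp4a14 (8.40 ± 0.15), Cyp2d26 (8.08 ± 0.11) and Cyp2c69 (8.03 ± 0.09). All of these entered the list through liver, and Cyp2e1, Cyp4a14 and Cyp2c69 only through liver P0. Their differences are therefore descriptions and no p is given. On the other side stood Cyp1b1 (-3.38 ± 0.19), Cyp4x1 (-3.12 ± 0.13), Cyp46a1 (-2.21 ± 0.15), Cyp2s1 (-1.90), Cyp26b1 (-1.68), Cyp2j9 (-1.42), Cyp7b1 (-1.29) and Cyp2u1 (-1.08). Cyp4x1, Cyp46a1, Cyp7b1 and Cyp2u1 entered the list through brain, so their differences are descriptions too. The calls of Cyp2j9, Cyp7b1 and Cyp2u1 were lost with median-of-ratios scaling and with quantile normalization, and that of Cyp2u1 also without liver P0 replicate 1 (-0.94) and with the title stages of the 4 doubtful libraries (-0.96). With a pseudocount of 0.1 the calls of Cyp2j9 (-0.92) and Cyp4b1 (0.67) were lost.

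Some members changed in opposite directions in the tissues. Cyp39a1 rose by 4.88 in liver and fell in every brain region, a difference of 6.70 ± 0.10. Cyp27a1 rose by 4.14 in liver and fell in every brain region, a difference of 5.62 ± 0.15. Cyp1b1 fell by 2.35 in liver and rose by 1.63 in forebrain.

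**Figure D5:**
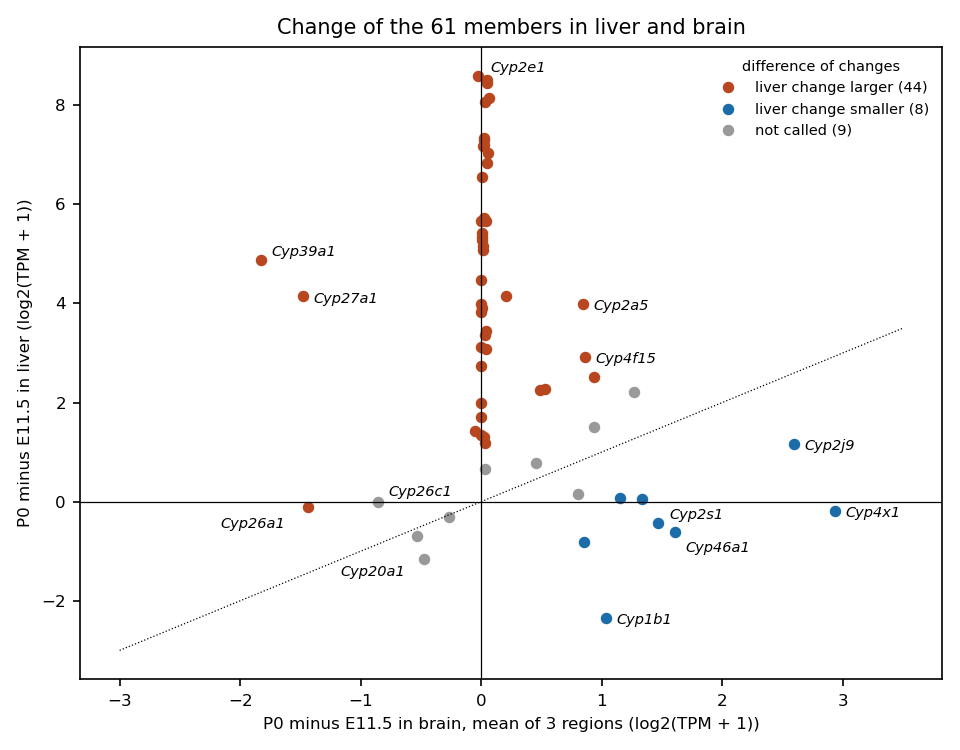
Change from E11.5 to P0 on the log2(TPM + 1) scale in liver (y axis) against the mean change in 3 brain regions (x axis) for the 61 members, 1 point each; the dotted line marks equal change. The 44 members with a larger change in liver lie above the line, the 8 with a smaller one, among them Cyp1b1, Cyp4x1 and Cyp46a1, lie below it, and 9 were not called.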

How the data were processed

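Gene expression was measured by RNA sequencing of mRNA libraries from mouse forebrain, midbrain, hindbrain and liver. The authors deposited the values as TPM per gene. Per the submitters' processing notes, STAR 2.4.0k, RSEM 1.2.23 and the mm10 genome were used. Filters and read depth are not stated. The columns sum to 997627 to 1000000 TPM, and 12104 to 15561 genes reach 1 TPM in a library, with no counts behind a value, so precision is known only from the spread of replicates. Of 43346 gene IDs, 42462 were given a symbol from GENCODE M21.

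Groups came from the sample labels. The 18655 genes that reached 1 TPM in 2 libraries or more were fitted as log2(TPM + 1) with limma 3.58.1 in R 4.3.3, with 1 mean for each of 31 tissue and stage groups, 30 residual degrees of freedom and a mean-variance trend. The pseudocount of 1 understates changes of low genes. In each of 15 contrasts a call needed a Benjamini-Hochberg adjusted p below 0.05 over all genes and a log2 change of at least 1. The fit was tested on simulated data. Shared 50-base windows were counted over transcripts, and RefSeq promoters (250 bases, 47 members matched of 61) were searched for letters.

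All members could be named. Values by library are given for the members with the highest levels in each family, for a list of P450 genes with known roles, and for those that lead a contrast. The members, the companion and marker lists and the motifs were chosen with earlier results of these data known, so they give no independent support. Alternatives were other pseudocounts, filters, scalings and trends, a replicate block, other stages for 4 libraries, and leaving out stages or single libraries.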

Additional observations from a re-analysis of the deposited data

Results flagged for a closer look

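For the members given here, limma compared the change from E11.5 to P0 in liver directly with the mean change in the 3 brain regions. The liver change was larger by 8.62 ± 0.12 (SE) for Cyp2e1, by 8.46 ± 0.11 for Cyp3a11, by 8.4 ± 0.15 for Cyp4a14, by 8.08 ± 0.11 for Cyp2d26 and by 8.03 ± 0.09 for Cyp2c69, with both liver P0 libraries above every other library in each case. All of these entered the list through liver, and Cyp2e1, Cyp4a14 and Cyp2c69 only through liver P0, so their differences are descriptions. For Cyp39a1 (6.7 ± 0.10) and Cyp27a1 (5.62 ± 0.15) the liver rose while all 3 brain regions fell. For Cyp1b1 (-3.38 ± 0.19) the liver fell and forebrain rose. With 1 or 2 libraries a group, no test for a single library that stands apart was made.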

How the results depend on the processing

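Among 233 called member values, 2333 of 2377 recomputations under other settings kept direction and call, 44 lost the call and 0 reversed; leaving out 1 library kept 3436 of 3448, lost 12 and reversed 0. The 46 members higher in liver at P0 than at E11.5 became 39 to 48. The 26 higher in liver than in brain became 25 to 39, with 38 under median-of-ratios scaling and 39 under quantile normalization.

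Counts that moved were these. With a pseudocount of 0.1, members higher in forebrain at P0 went from 8 to 20, members lower in liver at P0 from 2 to 4, and members lower in forebrain than hindbrain, forebrain than midbrain and midbrain than hindbrain from 1 each to 6, 4 and 3. With a pseudocount of 0.5 the first pair of these regional counts was 3 and 2. With quantile normalization, members higher at P0 went from 10 to 6 in hindbrain and from 9 to 4 in midbrain, members lower in liver than brain from 9 to 3, members lower in liver at P0 from 2 to 1, and members with a smaller change in liver than brain from 8 to 5. Median-of-ratios scaling gave 1 and 5 for the last pair. Members lower in forebrain than hindbrain were 2 without the E12.5 libraries and 1 to 2 when 1 library was left out, with 2 only without forebrain E12.5 replicate 2. The causes were not tested, except that a smaller pseudocount widens changes of low genes by construction.

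Replicate numbers did not pair the libraries: deviations of same-numbered liver libraries correlated at -0.2 to 0.2 over 21 pairs of stages. A replicate block, without the 4 doubtful libraries, left 46 and 2 members called in liver at P0, 26 and 9 between liver and brain, and 44 and 8 for the difference of changes. Leaving out E12.5 or E15.5 could not be applied to liver steps that use them. TPM without counts sets no detection limit for low members.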
